A study of Mus musculus with 22 samples.

Results

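The regions described here are stretches of accessible chromatin in mouse fat cells that lie outside protein-coding genes and far from the start of any. Peaks of all 22 deposited ATAC-seq libraries were merged wherever they overlapped by 1 bp or more, which gave 102995 union regions on chromosomes 1 to 19. A region was taken as a member when it was called in 3 to 21 libraries, overlapped no protein-coding gene and lay 100 kb or more from the nearest protein-coding transcription start site (TSS). Of the 33983 regions called in 3 to 21 libraries, 4790 (14.1%) met this rule. The members were thus chosen by the calls over all 22 libraries, without regard to group, and how often a member was called is a description and not a result. For comparison, 7470 of the remaining regions lay within 2 kb of a coding TSS (promoter regions), 12755 lay in coding genes and 8968 were intergenic but nearer than 100 kb.

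Accessible sites far from genes are mostly candidate distal enhancers, stretches of DNA where transcription factors bind and displace nucleosomes. Such an enhancer can act on a promoter far away through looping of the chromatin fibre, and the nearest gene is not always its target. In adipocytes, C/EBP factors, PPARγ with RXR, EBF factors and the glucocorticoid receptor bind many such sites, whereas AP-1 (Fos and Jun dimers) binds enhancers that respond to growth factor, stress and inflammatory signals. CTCF marks loop anchors, and PU.1 is a factor of macrophages and other blood cells that is also found in fat cells.

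All mice were AdipoERCre x NuTRAP, in which tamoxifen activates a Cre recombinase in adipocytes and the nuclei of those cells are then labelled with biotin. Tamoxifen was given at 4 to 5 weeks of age, before any high-fat diet (HFD), so the label marks cells that were adipocytes at that time. Nuclei of the epididymal fat depot were pulled down by the label and each library came from 1 animal. After 12 weeks of HFD, H mice were 18 weeks old, with C mice on a low-fat control diet at the same age (n = 3 each). HC mice had the same 12 weeks of HFD and then 8 weeks of chow, and were compared at 26 weeks of age with CC_s controls (n = 3 each). After 25 weeks of HFD, HH mice (n = 3) were 31 weeks old, with CC_l controls (n = 2). HHC mice (n = 3) had 25 weeks of HFD followed by 8 weeks of chow and were 39 weeks old, with CCC controls (n = 2). By the study's methods the control groups CC_s and CCC moved to a standard chow for the last 8 weeks, so they differ from C and CC_l in both diet and age. The labels number the libraries of the 12-week and the 25-week arm in separate series without saying what a series is, and duration, age and series cannot be told apart. In nuclei pooled from a whole depot, fewer cells of a type and less signal per cell cannot be told apart either.

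Libraries HC 3 and HHC 3 stood apart from the others. Their enrichment ratios (the median over a library's peaks of their maximum signal, divided by the lowest maximum in its list) were 2.43 and 2.25, against 3.67 to 8.92 in the other 20 libraries. They called 1450 and 1355 members, against 1997 to 2986 elsewhere, and the comparisons of HC and HHC are given with and without them. The ratio was also lower in H (4.7 to 6.4) than in C (6.82 to 8.92), and in HC 1 and HC 2 (6.5 and 6.25) as well as HC 3 it was lower than in CC_s (7.3 to 7.42). All 12 adipocyte marker promoters were called in every library. Of 12 macrophage markers, 5 to 10 were called, with a summed level (signal of their promoters per 1000000 of the library's total) of 599 to 661 in H against 674 to 881 in C and of 576 to 629 in HH against 769 to 774 in CC_l. Of 6 mesothelial markers, 2 to 6 were called, with sums of 203 to 218 in H against 328 to 442 in C and of 206 to 286 in HH against 332 to 390 in CC_l. Macrophage sums were also lower in HC (495 to 694) than in CC_s (734 to 906). In H, progenitor sums were lower (93.2 to 118 against 122 to 160 in C) and lymphocyte sums higher (223 to 225 against 182 to 196). Endothelial sums were lower in HHC (305 to 505) than in CCC (627 to 654). Sums of neuron markers, a type not expected among these nuclei, were lower in H (147 to 179) than in C (188 to 225) and in HH (174 to 186) than in CC_l (192 to 215). The part of these differences in the results below was not tested.

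Stretches of 300 bases at the signal maximum are shown for 7 members, from GRCm38.p6 and on the plus strand, so that the kinds of sequence described below can be seen. Capitals mark matches, on either strand, to short motif letters: TGANTCA for AP-1, TTGCNNAA for C/EBP and ACANNNTGT for the glucocorticoid receptor. Stretches without capitals held no match to any of the 7 motifs searched. The first is the member at the greatest distance from any coding TSS. The next 3 were gained in obesity at both durations and the last 3 were lost at both.
Farthest member, between Pcdh20 and Pcdh9, chr14:91326787-91327086: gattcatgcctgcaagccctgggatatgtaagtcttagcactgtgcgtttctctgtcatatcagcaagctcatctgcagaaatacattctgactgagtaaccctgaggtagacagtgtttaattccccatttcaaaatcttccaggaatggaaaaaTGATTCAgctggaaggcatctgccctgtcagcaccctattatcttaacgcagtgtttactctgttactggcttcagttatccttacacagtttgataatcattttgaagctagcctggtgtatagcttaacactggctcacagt
Gained, between Sec61b and Nr4a3, chr4:47670501-47670800: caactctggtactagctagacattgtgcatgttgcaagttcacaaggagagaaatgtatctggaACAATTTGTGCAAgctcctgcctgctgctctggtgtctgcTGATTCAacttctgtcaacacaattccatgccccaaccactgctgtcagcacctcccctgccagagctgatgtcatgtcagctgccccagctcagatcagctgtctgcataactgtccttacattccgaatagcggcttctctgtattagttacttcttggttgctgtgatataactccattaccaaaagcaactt
Gained, between Cttnbp2 and Lsm8, chr6:18699432-18699731: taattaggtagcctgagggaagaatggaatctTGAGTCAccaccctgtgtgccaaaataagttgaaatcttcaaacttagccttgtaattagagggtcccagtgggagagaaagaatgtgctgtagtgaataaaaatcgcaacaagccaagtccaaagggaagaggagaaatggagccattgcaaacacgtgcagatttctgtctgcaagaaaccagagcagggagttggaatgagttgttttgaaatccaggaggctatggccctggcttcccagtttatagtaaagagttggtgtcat
Gained, between Gm10295 and Mctp2, chr7:71963424-71963723: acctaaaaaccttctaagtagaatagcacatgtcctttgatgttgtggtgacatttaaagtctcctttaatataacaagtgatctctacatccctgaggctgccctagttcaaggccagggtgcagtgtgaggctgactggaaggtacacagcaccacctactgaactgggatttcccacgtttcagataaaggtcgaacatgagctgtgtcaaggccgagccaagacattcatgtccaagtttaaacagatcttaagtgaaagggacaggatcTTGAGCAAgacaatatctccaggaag
Lost, between Pik3r1 and Cd180, chr13:102533788-102534087: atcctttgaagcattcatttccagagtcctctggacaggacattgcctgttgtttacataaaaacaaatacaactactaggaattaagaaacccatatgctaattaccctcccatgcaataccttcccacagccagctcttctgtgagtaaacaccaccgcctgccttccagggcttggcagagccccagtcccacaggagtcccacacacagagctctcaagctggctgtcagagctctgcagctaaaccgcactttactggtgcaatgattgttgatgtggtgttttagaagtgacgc
Lost, between Gm12728 and Usp24, chr4:105969702-105970001: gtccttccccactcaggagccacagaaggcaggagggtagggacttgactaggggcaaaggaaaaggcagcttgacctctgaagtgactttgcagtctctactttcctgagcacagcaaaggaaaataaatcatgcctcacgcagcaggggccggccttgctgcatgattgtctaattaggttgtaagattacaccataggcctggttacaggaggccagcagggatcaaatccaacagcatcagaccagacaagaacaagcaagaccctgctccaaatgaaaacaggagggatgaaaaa
Lost, between Ccdc91 and Far2, chr6:147871081-147871380: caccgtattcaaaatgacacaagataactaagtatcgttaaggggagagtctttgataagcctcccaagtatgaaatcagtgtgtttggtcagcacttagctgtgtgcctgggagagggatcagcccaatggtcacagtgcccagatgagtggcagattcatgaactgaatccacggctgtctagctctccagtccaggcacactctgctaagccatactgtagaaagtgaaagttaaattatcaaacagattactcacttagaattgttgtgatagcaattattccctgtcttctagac
The Sec61b to Nr4a3 stretch held an AP-1 match at base 105 and a C/EBP match on the minus strand at base 70 that overlapped a glucocorticoid receptor match at base 65, counted from 1 at the left end. Nr4a3 encodes an orphan nuclear receptor. The 3 lost members shown had no match, as was the case for 2 of the 5 named members gained at both durations, which are not shown.

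The territory 100 kb or more from a coding TSS and outside coding genes spanned 716.5 Mb, or 29.9% of chromosomes 1 to 19, and the members covered 3.26% of it. Their distance to the nearest coding TSS had a median of 215 kb, with 2195 members (45.8%) nearer than 200 kb and 624 (13.0%) at 500 kb or more. Just inside the limit, a region at chr6:73366353 called in 18 libraries lay 100062 bp from 4931417E11Rik and a region at chr3:51121125 called in 6 lay 100074 bp from Noct. Just outside it, a region called in 6 libraries lay 99977 bp from Asap2 and a region called in 20 lay 99958 bp from Ednra. Chromosome 13 held the densest set, 389 members or 10.3 per Mb of such territory, against 6.68 over all chromosomes and 4.86 on chromosome 19.

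The members were nearest to 1482 coding genes, of which 526 were nearest to a single member. A group of 62 genes each stood nearest to 10 or more, 852 members in all. Zeb2, a repressor of the epithelial state, was the nearest gene of 34 members, the adhesion receptor gene Adgrl2 of 31, the growth regulator Myc of 29 and Tbl1xr1, a subunit of nuclear receptor corepressor complexes, of 28. Among genes with known roles in fat, Pik3r1, which encodes the regulatory subunit of PI3-kinase in insulin signalling, was nearest to 20, Ppargc1a, a coactivator of mitochondrial genes, to 13, and Klf6 to 12. Genes of developmental transcription factor families (Sox, Fox, Zeb, Klf and others) were nearest to 281 members (5.87%), against 2.64% of all regions called in 3 to 21 libraries and 1.93% of promoter regions. Adhesion and guidance genes (protocadherins, contactins, semaphorins and others) were nearest to 194 members (4.05%), against 2.06% of all. By the rule only genes beside wide stretches without a coding TSS can be nearest to a member, which does not hold for the other classes. The share of the far territory nearest to these families was not computed. These shares rest on the nearest gene only and were not tested.

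The 1 Mb windows with the most members were chr13:107000001-108000000 with 26, near Kif2a and Smim15, chr2:45000001-46000000 with 24, near Zeb2, and chr17:4000001-5000000 with 23, near Arid1b and Nox3. The window at chr13 had a median of 11.5 calling libraries per member and 129 kb of accessible sequence, and that near Zeb2 a median of 16 and 145 kb. In H against C, 1 of the 26 members at chr13 and 2 of the 24 near Zeb2 were called in every C and no H library, and none in either window was gained, beside 3.23% lost and 4.78% gained over all regions called in 3 to 21 libraries.

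Members were narrower and poorer in GC than other regions. Their median width was 4192 bp (interquartile range 3246 to 5679 bp), against 6078.5 bp for promoter regions and 4926 bp for all regions called in 3 to 21 libraries. The median GC content of the 300 bp window was 45.0%, against 52.0% at promoter regions and 47.7% over all. Repeat-masked sequence made up a median of 20.9% of a member and 21.5% of all regions. A non-coding gene overlapped 1097 members (22.9%), in 784 cases a lincRNA, and 369 members (7.7%) held the TSS of one.

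C/EBP letters were the most frequent of the 7 motifs in the members. TTGCNNAA occurred in 31.3% of member windows, against 22.7% of all regions called in 3 to 21 libraries and 16.1% of promoter regions. The AP-1 letters TGANTCA occurred in 13.7% of members, 11.7% of all and 9.1% of promoter regions. EBF letters (CCCNNGGG) occurred in 10.0% of members against 11.3% of all, an order that turned to 8.40% against 7.92% in windows of 40 to 50% GC. C/EBP letters were there in 30.6% against 26.1% and AP-1 letters in 13.7% against 12.7%, a limit chosen after seeing the data. The share was lower in members for CTCF (CCACNAGG), with 5.2% against 7.3%. The glucocorticoid receptor letters occurred in 12.5% of members and 11.1% of all, PU.1 (GAGGAAGT) in 1.8% and 2.3%, and AGGTCAAAG, part of the PPAR-RXR direct repeat, in 0.6% of both. Both strands were searched and matches of different motifs may overlap. The shares were not tested.

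How often a member was called spread over the whole range of the rule. Of the 4790, 1405 (29.3%) were called in 3 to 5 libraries and 1384 (28.9%) in 17 to 21, and a further 697 far regions that the rule leaves out were called in all 22. The member at the greatest distance from any coding TSS lay between Pcdh20 and Pcdh9, which encode protocadherins. At chr14:91325642-91327846, it was 2558 kb from a TSS of Pcdh9 and was called in 14 libraries. In log2 rank-mapped signal (each library's regions ranked by summed signal and given the mean value at that rank, with a floor of 14.01) its levels were 14.63 to 15 in H (n = 3) and 14.54, none and 14.24 in C. All H libraries lay above all C libraries, with a difference of 0.55 (SE 0.21, n = 3 each, limma adjusted p = 0.105), which did not pass the test. It was 1.17 with the maximum signal and 0.84 with libraries centred on their median, with limma adjusted p of 0.0435 and 0.0490.

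The most widely called members were large. The member at chr16:13483505-13523977, 40473 bp wide over the lincRNA gene 2310015D24Rik between Mrtfb and Parn, was called in every library but HHC 3. Its levels were 18.06, 18.26 and 18.26 in C and 17.32, 17.16 and 17.55 in H, with no overlap, and it was lower in H by a log2 difference of -0.85 (SE 0.14, limma adjusted p = 0.00996). With the maximum signal it was -0.55 (limma adjusted p = 0.133), and without C 2 the limma adjusted p was 0.0677. The member at chr13:52178708-52200322, between the stress-response gene Gadd45g and Diras2, also had all C libraries (17.36 to 17.72) above all H libraries (16.39 to 16.81), with a difference of -0.84 (SE 0.17, limma adjusted p = 0.0183). The limma adjusted p was over 0.05 with the maximum signal (-0.72, adjusted p = 0.0867), with all libraries of the duration in 1 fit (-0.84, adjusted p = 0.0508) and without H 1, H 2, C 1 or C 2 (-0.90 to -0.70, adjusted p = 0.0574 to 0.0929). The member at chr1:106510387-106531756, between Phlpp1 and Bcl2, had overlapping levels of 17.90, 17.19 and 17.65 in C and 15.92, 16.79 and 17.27 in H (-0.92, SE 0.34, limma adjusted p = 0.0933), which became -1.17 (limma adjusted p = 0.0209) with libraries centred on their median and -0.05 with the maximum signal. As first fitted, none of the 3 reached the size of 1 on the log2 scale used below to call a change. For the first and second of these, HH with CC_l gave -0.77 (SE 0.21) and -0.81 (SE 0.22), with limma adjusted p of 0.215 and 0.216.

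Obese and control libraries called members about as often, within the spread between libraries. C libraries called 2295, 2535 and 2664 members and H libraries 2494, 2578 and 2955, so the groups overlapped. As a share of the 4790, the mean was 52.2% ± 3.91 (SD, n = 3) in C and 55.9% ± 5.13 in H, against 54.5% and 53.4% of all regions called in 3 to 21 libraries. CC_l libraries called 2470 and 2908 and HH libraries 2055, 2757 and 2986, means of 56.1% ± 6.47 (n = 2) and 54.3% ± 10.1 (n = 3).

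After weight loss the calls were lower on average, with wide spread. HC libraries called 2397, 2904 and 1450 members (47.0% ± 15.4) and CC_s libraries 2775, 2266 and 2613 (53.3% ± 5.43). HHC libraries called 1997, 2123 and 1355 (38.1% ± 8.60) and CCC libraries 2449 and 1997 (46.4% ± 6.67). Without HC 3 the HC mean was 55.3%, above that of CC_s, and without HHC 3 the HHC mean was 43.0%. Over all regions called in 3 to 21 libraries the means were 47.5% in HC (55.6% without HC 3) against 59.1% in CC_s, and 41.9% in HHC (48.6% without HHC 3) against 53.5% in CCC. Of the regions called in 3 to 21 libraries that a library called, members made up from 11% in CC_s 2 to 15.9% in HH 3, with a mean of 14.7% ± 0.594 in H against 13.5% ± 0.780 in C.

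**Figure D1:**
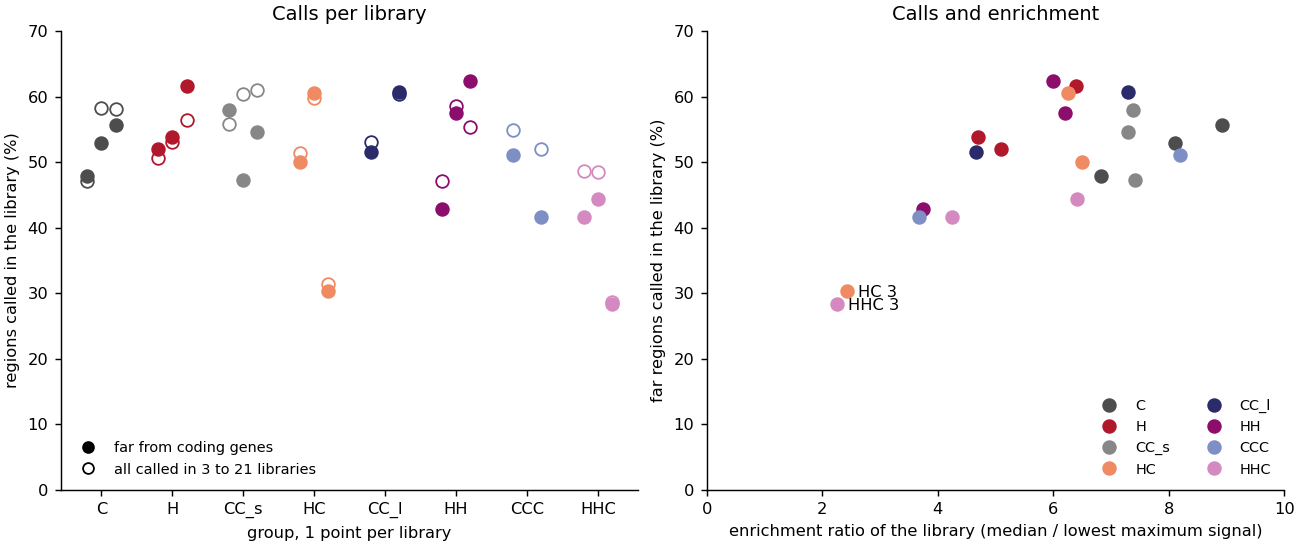
Left, the percent of the 4790 members (filled) and of all 33983 regions called in 3 to 21 libraries (open) that each library called, by group. Right, the percent of members called against the enrichment ratio of the library, where HC 3 and HHC 3 lie at the lowest ratios with the fewest calls.

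With all libraries in, obesity after 12 weeks of HFD was the comparison in which gains at the members were most frequent. The pairs differ in their number of libraries, and without HH 1 gains in HH against CC_l stood at 494 members (10.3%). A member counted as gained where all libraries of the first group and no library of the second called it, and as lost in the reverse case. In H against C, 386 members (8.06%) were gained and 178 (3.72%) lost, where 4.78% of all regions called in 3 to 21 libraries were gained and 3.23% lost. The gained share was 2.4% at promoter regions, 4.86% in coding genes and 4.91% in nearer intergenic regions, and the lost share was 3.03%, 2.98% and 3.48%. The lost count rose to 357 without H 3 and to 309 without C 1, as fewer libraries then had to meet the condition. That is 7.45% and 6.45% of members against 6.20% and 6.39% of all regions. Gained counts ran from 410 to 534 over the libraries left out, or 8.56% to 11.1% of members against 5.26% to 7.08% of all. No test was run on these shares. Gained members lay at a median of 263 kb from the nearest coding TSS and lost members at 199 kb, and a non-coding gene overlapped 16.3% and 32.0% of them. In HH against CC_l these values were 223 and 203 kb, and 25.1% and 25.9%.

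**Figure D2:**
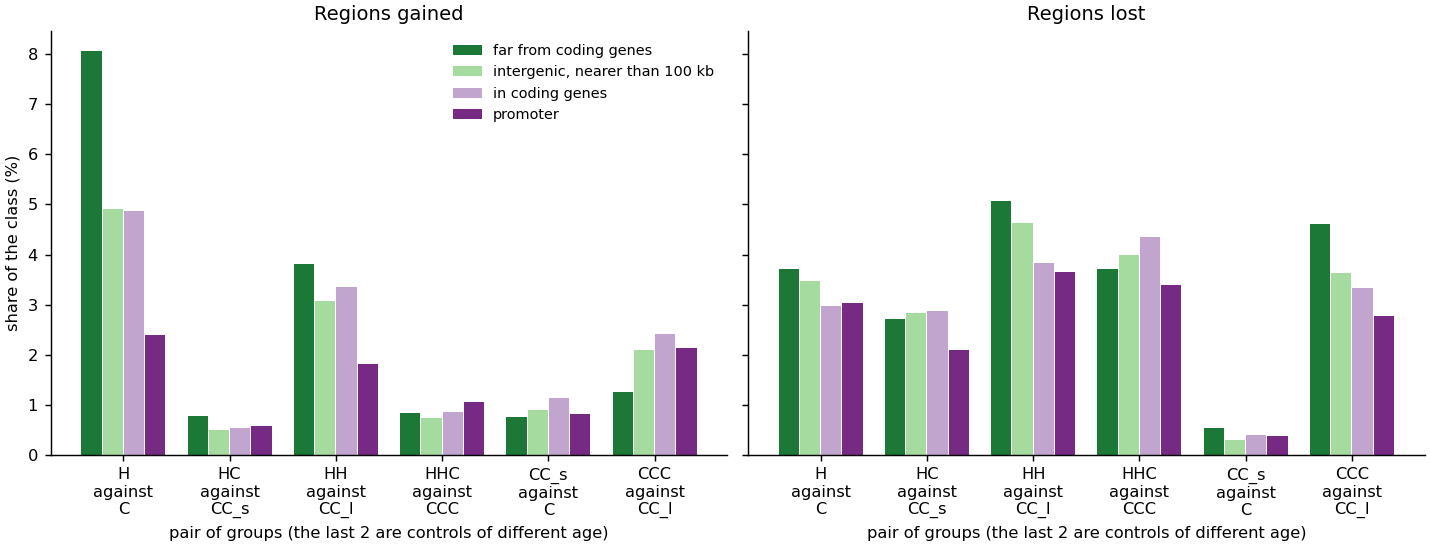
Percent of each class of regions gained (left) and lost (right) in 6 pairs of groups, for the far members, nearer intergenic regions, regions in coding genes and promoter regions. In H against C the far members have the highest gained share, 8.06%, and promoter regions the lowest, 2.4%.

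The limma fit of log2 rank-mapped signal, made over all 30840 regions tested in H and C, gave a smaller contrast. Of 2559 members tested, 174 (6.80%) were higher in H and 114 (4.45%) lower at an adjusted p under 0.05 and a difference over 1, where 4.93% and 3.36% of all tested regions were. These counts and shares, like those of the other pairs below, include regions without a call in 1 group. How many was not counted. Among tested regions called in 3 to 21 libraries only, the shares were 6.61% and 3.92%, and regions in coding genes had a higher share than the members among those higher in H, 7.18%, and a lower one among those lower, 3.11%. Higher members were 60.4% of those called, and 70.7% (417 and 173) with the maximum in place of the summed signal and 70.4% (338 and 142) with libraries centred on their median. Without C 2 the fit called 10 higher and 5 lower, without C 1 63 and 43, and without H 1 or H 2 117 and 39 or 110 and 34.

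The member with the smallest p among those higher in H lay at chr5:80657628-80671415, between Igfbp7, which encodes a secreted IGF-binding protein, and the adhesion receptor gene Adgrl3. Its levels were 17.12, 16.99 and 17.04 in H and 14.21, 14.01 and none in C, a difference of 2.97 (SE 0.20, n = 3 each, limma adjusted p = 0.00198). HC libraries stayed at 16.62, 16.46 and 16.68 and CC_s libraries at 15.72, 14.01 and 14.63, without overlap, a difference of 1.80 (SE 0.44) with a limma adjusted p of 0.164. In the long arm the difference between HH and CC_l was 1.43 (SE 0.29, limma adjusted p = 0.170).

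A member at chr8:9093403-9104881, between Arglu1 and Fam155a, had levels of 16.68, 16.94 and 16.72 in H and none, none and 14.10 in C (difference 2.73, SE 0.21, limma adjusted p = 0.00255). At this member and the one before, the H levels alone were enough to enter the fit, as C levels were at or near the floor of 14.01. The chr8 member had 15.67, 16.80 and 16.80 in HH, and CC_l had none and 14.01, so the groups of both durations were apart. Of members without a call in C, that at chr10:46005172-46013377, between Hace1 and the glutamate receptor gene Grik2, had the highest mean level in H, 16.57 ± 0.118 (SD, n = 3). Members without a call in 1 group of a pair entered the fit only through the other group, and no p is given for them. It was called in no CC_s or CCC library, in HC 1 and HC 2 at 15.94 each, and in HHC 1 and HHC 2 at 15.36 and 15.47.

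Among members lower in H, that at chr9:61803506-61814058, between the corepressor gene Tle3 and the ribosomal protein gene Rplp1, had levels of 16.11, 16.07 and 16.12 in C and none, none and 14.11 in H (difference -2.05, SE 0.21, limma adjusted p = 0.00396). Its C levels alone were enough for it to enter the fit, as H levels were at or near the floor of 14.01. Tle3 is known as a partner of PPARγ in fat cells. After weight loss its levels overlapped, at 15.83, 16.32 and 14.01 in HC and 15.73, 16.26 and 15.69 in CC_s.

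The member at chr4:83966812-83978268 was low in all 4 HFD groups. It lies between Ccdc171 and Bnc2, which encodes a zinc finger protein of mesenchymal cells. Its levels were 17.16, 17.29 and 16.25 in C and none, none and 14.09 in H (difference -2.86, SE 0.30, limma adjusted p = 0.00417). HC had 14.24, 14.25 and 15.58 and CC_s 17.46, 17.04 and 16.97 (-2.47, SE 0.41, limma adjusted p = 0.136). HH had 14.25 in HH 1 and none in the other two, CC_l had 16.99 and 17.03 (-2.91, SE 0.31, limma adjusted p = 0.162), and HHC had no call while CCC had 16.96 and 17.02. The limma adjusted p for HH was 0.0439 with libraries centred on their median and 0.0317 with all libraries of the duration in 1 fit. Without CC_l 2 the difference was -2.89. In HH and CC_l, as in H and C, the control levels alone were enough for the member to enter the fit. No HFD library reached a library of its own control group in any of the pairs, although as first fitted the test was passed in H and C only, and whether the pairs differ was not shown, with a limma adjusted p of 0.988 between the obese pairs.

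After 25 weeks of HFD losses at the members outnumbered gains, as over all regions called in 3 to 21 libraries, an order that rested on HH 1. In HH against CC_l, 183 members (3.82%) were gained and 243 (5.07%) lost, where 3.0% and 4.18% of all regions called in 3 to 21 libraries were. The gained share was 1.82% at promoter regions, 3.35% in coding genes and 3.07% in nearer intergenic regions. Without HH 1, 494 members were gained and 312 lost, and without CC_l 2, 297. Without CC_l 1, 491 were lost. Over all regions the gained share was 7.22% without HH 1 and 5.72% without CC_l 2, and the lost share 5.81% without HH 1 and 8.94% without CC_l 1, beside 10.3%, 6.20%, 6.51% and 10.3% of members. With 2 libraries in CC_l, the limma fit called no member of 2957 tested at an adjusted p under 0.05, while 489 (16.5%) had an unadjusted p under 0.05, against 13.7% of all tested regions.

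At an unadjusted p under 0.01, 35 members (1.18%) were higher in HH and 54 (1.83%) lower in limma, where 1.36% and 1.33% of all tested regions were. Among tested regions called in 3 to 21 libraries the shares were 1.53% and 1.73%. The order turned to 124 higher and 68 lower with libraries centred on their median, to 110 and 56 without HH 1 and to 36 and 31 without HH 2. Without CC_l 1 the counts were 7 and 50, and without CC_l 2, 9 and 37, when 40 and 33 members passed adjustment. The member of smallest p among those higher was chr14:80478361-80490545, between Olfm4 and Pcdh17, with 16.20, 16.69 and 16.64 in HH and 14.37 and 14.01 in CC_l (difference 2.32, SE 0.31, limma adjusted p = 0.162). It also had 16.76, 16.81 and 16.22 in H against 14.51, none and 15.64 in C (1.88, SE 0.40, limma adjusted p = 0.0214), so neither pair overlapped. At chr4:105553315-105567623, between the lipid phosphatase gene Plpp3 and Gm12728, HH had 17.06, 16.89 and 16.86 and CC_l 15.65 and 15.36 (1.44, SE 0.21, limma adjusted p = 0.162).

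Members gained or lost at both durations were found in each direction. A total of 89 were gained in both H and HH, which is 23.1% of those gained in H and 48.6% of those gained in HH. A further 61 were lost in both, 34.3% of those lost in H and 25.1% of those lost in HH. Over all regions called in 3 to 21 libraries, 368 were gained in both (22.6% and 36.0%) and 227 lost in both (20.7% and 16%). Opposite changes at the durations were seen in 0 members and in 2 of all these regions. The pairs share no library. The interaction of diet and duration passed for no member in limma at an adjusted p under 0.05, and 230 of 3917 members tested had an unadjusted p under 0.05, where 2216 of all 41045 regions did.

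Of the gained members, that between Sec61b and Nr4a3 (chr4:47666990-47673513) had levels of 16.29, 16.38 and 16.37 in H and 15.92, 15.41 and 16.16 in HH, with no call in C or CC_l. It was called in HC 1 and HC 2 at 14.62 and 15.31, in CC_s 1 at 14.03, and in no HHC or CCC library. The member between Cttnbp2 and Lsm8 (chr6:18696343-18701953) had 16.09, 16.39 and 16.32 in H and 15.23, 15.42 and 16.13 in HH, again with none in C and CC_l, and HC 1 and HC 2 were near the floor at 14.09 and 14.38.

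The member between Gm10295 and Mctp2 (chr7:71958717-71965667), over 2 lincRNA genes, had 15.32, 16.11 and 15.65 in H, with no call in C. All HC libraries called it, at 14.09, 14.06 and 15.56, and no CC_s library did. Its highest level after weight loss was thus in HC 3, the library that stood apart.

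Of the lost members, that between Pik3r1 and Cd180 (chr13:102525012-102542691) had levels of 15.66, 16.05 and 15.47 in C and 15.97 and 15.89 in CC_l, with no call in any H or HH library. HC 2 alone among HC libraries called it, at 15.25, while CC_s had 15.07, 16.45 and 16.32. In the long arm HHC 1 and HHC 2 had 15.78 and 15.89, close to the 16.04 and 15.99 of CCC, and HHC 3 had none.

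The member between Gm12728 and Usp24 (chr4:105965116-105976561) had 15.76, 15.25 and 15.61 in C and none in H, and 14.73 and 14.34 in CC_l and none in HH. The member between Ccdc91 and Far2, the latter encoding a fatty acyl-CoA reductase (chr6:147869250-147878360), had 14.82, 15.72 and 14.05 in C and none in H. It shows that a member can be lost by calls while some of its control levels are near the floor.

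**Figure D3:**
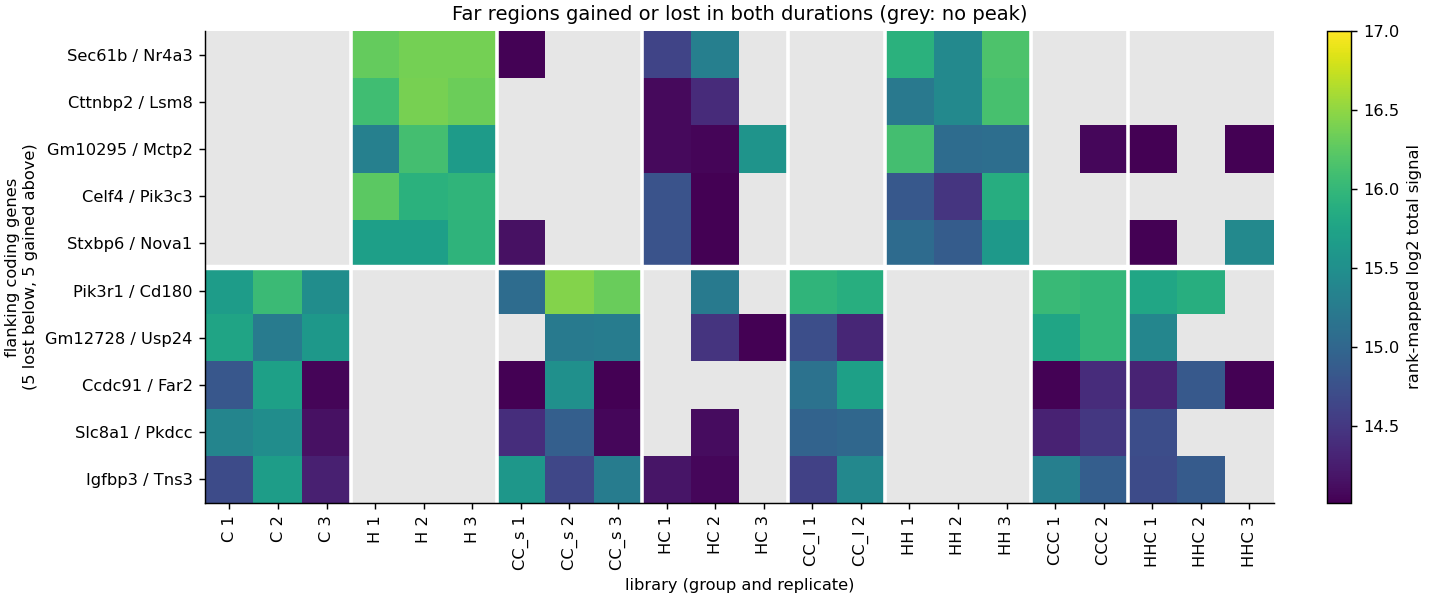
Log2 rank-mapped signal of 5 members gained and 5 lost at both durations in each of the 22 libraries, named by the flanking coding genes, with grey where no peak was called. The H and HH columns are filled for gained and grey for lost members, and HC and HHC columns are mixed.

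After weight loss, members gained were fewer than members lost, an order shared by all regions called in 3 to 21 libraries. At the members of the short arm it rested on HC 3. In HC against CC_s, 37 members (0.772%) were gained and 130 (2.71%) lost, where 0.568% and 2.67% of all regions called in 3 to 21 libraries were. Without HC 3, 181 were gained (3.78%, against 2.52% of all regions) and 152 lost (3.17% against 3.23%). Without HC 1, HC 2 or CC_s 1 the gained count was 101, 62 or 83. That is 2.11%, 1.29% or 1.73% of members, against 1.44%, 1.12% or 1.22% of all regions. Without HC 2, CC_s 1 or CC_s 2 the lost count was 252, 221 or 207. These are 5.26%, 4.61% or 4.32%, against 5.59%, 6.64% or 3.61% of all. In HHC against CCC, 40 (0.835%) were gained and 178 (3.72%) lost, where 0.862% and 3.95% were. Without HHC 3, 113 were gained (2.36%, against 2.39% of all regions) and 214 lost (4.47% against 4.68%). Without HHC 1, HHC 2, CCC 1 or CCC 2 the gained count was 127, 100, 132 or 70. That is 2.65%, 2.09%, 2.76% or 1.46% of members, against 2.4%, 2.12%, 2.4% or 1.75% of all regions. The lost count was 298, 299, 318 or 475. These are 6.22%, 6.24%, 6.64% or 9.92%, against 7.34%, 6.85%, 8.61% or 8.85% of all.

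The control groups of different age were compared in the same way, with 3 libraries against 3 in the short arm and 2 against 2 in the long arm, where the rule is met more easily than with 3 against 2. In CC_s against C, 36 members (0.752%) were gained and 26 (0.543%) lost, where 0.948% and 0.383% of all regions were. In CCC against CC_l, 60 (1.25%) were gained and 221 (4.61%) lost, where 2.11% and 3.46% were. In the first pair the gained count was 63, 98, 57, 92 or 79 without CC_s 1, CC_s 2, CC_s 3, C 2 or C 3. That is 1.32%, 2.05%, 1.19%, 1.92% or 1.65% of members, against 2.84%, 1.75%, 1.51%, 2.31% or 2.15% of all regions. The lost count was 85, 47, 68, 52 or 58 without CC_s 1, CC_s 3, C 1, C 2 or C 3. These are 1.77%, 0.981%, 1.42%, 1.09% or 1.21%, against 1.03%, 0.792%, 1.16%, 0.903% or 0.945% of all. In the second pair the gained count was 239, 184 or 196 without CCC 1, CCC 2 or CC_l 2. That is 4.99%, 3.84% or 4.09% of members, against 8.15%, 5.41% or 6.30% of all regions. The lost count was 700, 551 or 396 without CCC 1, CC_l 1 or CC_l 2. These are 14.6%, 11.5% or 8.27%, against 10.6%, 9.19% or 7.17% of all.

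The limma fits of the weight loss pairs called no member at an adjusted p under 0.05. In HC and CC_s 327 of 2237 members tested (14.6%) had an unadjusted p under 0.05, against 12.0% of all regions, and in HHC and CCC 213 of 2439 (8.73%) against 6.14%. At an unadjusted p under 0.01 and a difference over 1, limma gave 9 members higher (0.402%) and 59 lower (2.64%) in HC. Of all tested regions 0.441% and 2.1% were, and of tested regions called in 3 to 21 libraries 0.441% and 2.82%. Without HC 3 the member counts were 56 and 53, when 8 members passed adjustment. The lower count was 30, 36 or 25 without HC 1, CC_s 2 or CC_s 3, and the higher count 1 without either of those CC_s libraries. In HHC limma gave 2 members higher (0.0820%) and 17 lower (0.697%). Of all tested regions 0.122% and 0.583% were, and of tested regions called in 3 to 21 libraries 0.102% and 0.846%. Without HHC 3 the member counts were 13 and 28. The counts were 0 and 2 without HHC 1, 1 and 5 without HHC 2 and 0 and 27 without CCC 2, and without CCC 1 8 members passed adjustment. With libraries centred on their median the counts were 66 and 79 in HC and 13 and 42 in HHC.

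The member of smallest p among those higher in HC lay at chr14:120699599-120708232, between the small GTPase gene Rap2a and the importin gene Ipo5. HC libraries had 15.63, 15.85 and 15.77 and no CC_s library called it. HHC libraries had 16.05, 16.07 and 15.77 and CCC libraries 14.12 and none (difference 1.90, SE 0.45, limma adjusted p = 0.753). It stood at 16, 16.11 and 15.78 in H, where C had none, none and 14.01. All 12 HFD libraries were above all 10 control libraries. A member at chr15:4595034-4601251, between Plcxd3 and the complement gene C6, was called in all 12 HFD libraries, at 14.38 to 16.38, and in no C, CC_s or CCC library, with CC_l 2 alone at the floor.

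In the other direction, the member at chr6:51677468-51682972, between Snx10 and Skap2, had 16.30, 15.98 and 16.02 in CC_s and no call in HC. The member at chr11:111234513-111243762, between the potassium channel gene Kcnj2 and Sox9, had 16.10, 16.05 and 15.98 in CC_s with none in HC, and 15.50 and 16.41 in CC_l with none in HH. Both were called in C 1 and C 2 and not in C 3, and H libraries had none but a call at the floor for the first in H 3. At chr9:61593839-61598632, also between Tle3 and Rplp1, CCC had 15.48 and 15.78 and HHC none.

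The members gained or lost in obesity were then followed into the weight loss groups, whose libraries did not define a gain or loss but counted towards the 3 to 21 calls that made a region a member. Of the 386 gained in H, HC called 142, 200 and 73 and CC_s 120, 21 and 38. The mean share called was 35.8% in HC and 15.5% in CC_s, 190 members (49.2%) were called in a larger share of HC than of CC_s libraries, and 31 (8.03%) in a smaller share. Over every member these were 26.2% and 39.4%. CC_s 1 lay between the HC libraries, so the groups overlapped. Without HC 3 the mean share in HC was 44.3%, and 195 were called more often and 29 less often.

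Of the 178 lost in H, HC called 70, 94 and 31 and CC_s 126, 133 and 137, with no overlap. The mean share called was 36.5% against 74.2%, and 127 (71.3%) were called less often in HC and 10 more often. Without HC 3 the mean share in HC was 46.1%, and 100 (56.2%) were called less often and 25 more often, while over every member the shares were then 23.9% and 27.2%.

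In the long arm, HHC called 80, 51 and 41 of the 183 members gained in HH and CCC 23 and 18, with no overlap. The mean share called was 31.3% (35.8% without HHC 3) against 11.2%, with 90 (49.2%) called more often in HHC and 21 (11.5%) less often, or 75 (41.0%) and 9 without HHC 3. Of the 243 lost in HH, HHC called 48, 65 and 37 and CCC 145 and 99, again with no overlap, and 152 (62.6%) were called less often in HHC, or 121 (49.8%) without HHC 3. Over every member, 28.0% were called more often and 43.5% less often in HHC, or 18.5% and 23.2% without HHC 3. Of all regions called in 3 to 21 libraries, 50.6% of those gained in H were called more often in HC (56.6% without HC 3) and 68.8% of those lost in H less often (56.9% without HC 3). In the long arm 511 of the 1021 such regions gained in HH were called more often in HHC (430 without HHC 3) and 22.9% less often (11.9% without HHC 3), and 65.2% of those lost in HH less often, or 710 of 1419 without HHC 3.

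**Figure D4:**
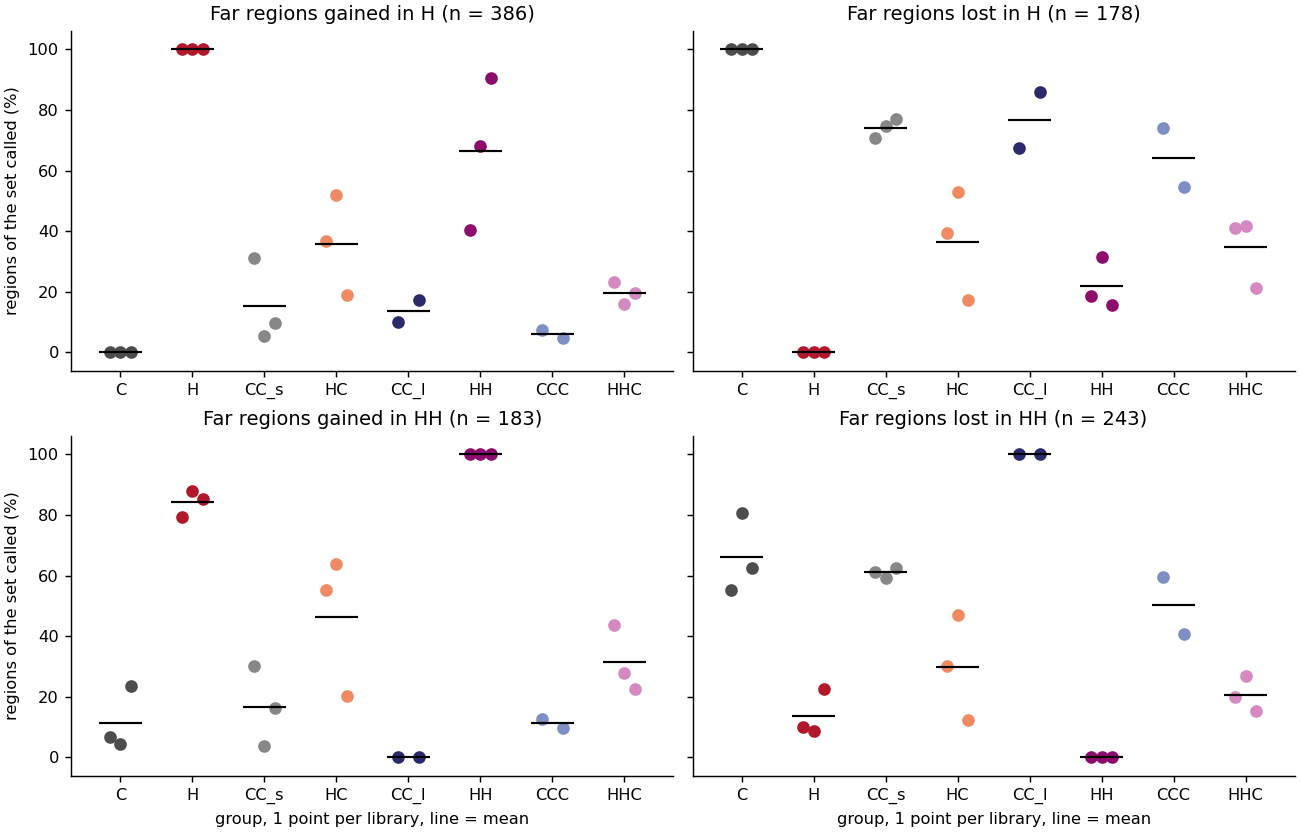
Percent of 4 sets of members called in each library of the 8 groups: gained in H, lost in H, gained in HH and lost in HH. The groups that define a set lie at 0 or 100% by construction, and in the other groups HC and HHC libraries mostly lie between the obese and the control libraries.

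Members gained in obesity and members lost in it differed in base composition and in the letters they held. Gained members had a median GC content of 43.0% in H and 44.0% in HH, and lost members 47.3% and 45.7%. AP-1 letters were in 77 of the 386 windows gained in H (19.9%) and in 17 of the 178 lost (9.55%), against 13.7% of all members. In HH they were in 25.7% of gained and 10.3% of lost windows, and at both durations in 24 of the 89 gained and 5 of the 61 lost. Regions nearer to genes had the same order, with 16.5% and 10.2% in H and 19.5% and 6.80% in HH. In windows of 40 to 50% GC the shares for the members were 19.6% and 8.93% in H and 30.6% and 12.3% in HH.

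C/EBP letters were in 36.5% of windows gained and 25.3% of those lost in H, and in 41.0% and 27.2% in HH, against 28.8% and 19% and then 28.2% and 20.5% in regions nearer to genes. EBF letters had the opposite order, in 4.15% gained and 9.55% lost in H and 7.10% and 9.88% in HH. Glucocorticoid receptor letters were in 12.2% gained and 14.6% lost in H and in 12.6% gained and 20.6% lost in HH, against 12.1% and 9.37% and then 10.3% and 13.5% in regions nearer to genes. CTCF letters were in 4.15% gained and 7.30% lost in H and in 3.28% and 4.12% in HH. For PU.1 the shares were 1.55% and 2.25% in H and 1.09% and 2.88% in HH. The PPAR-RXR letters were in 7 of 386 gained and 0 of 178 lost windows in H, and in 4 of 183 and 0 of 243 in HH. In regions nearer to genes they were in 1.21% and 0.436% in H and 0.955% and 0.680% in HH. Matches describe the sequence and not the binding of a factor, and no test was run on the shares.

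**Figure D5:**
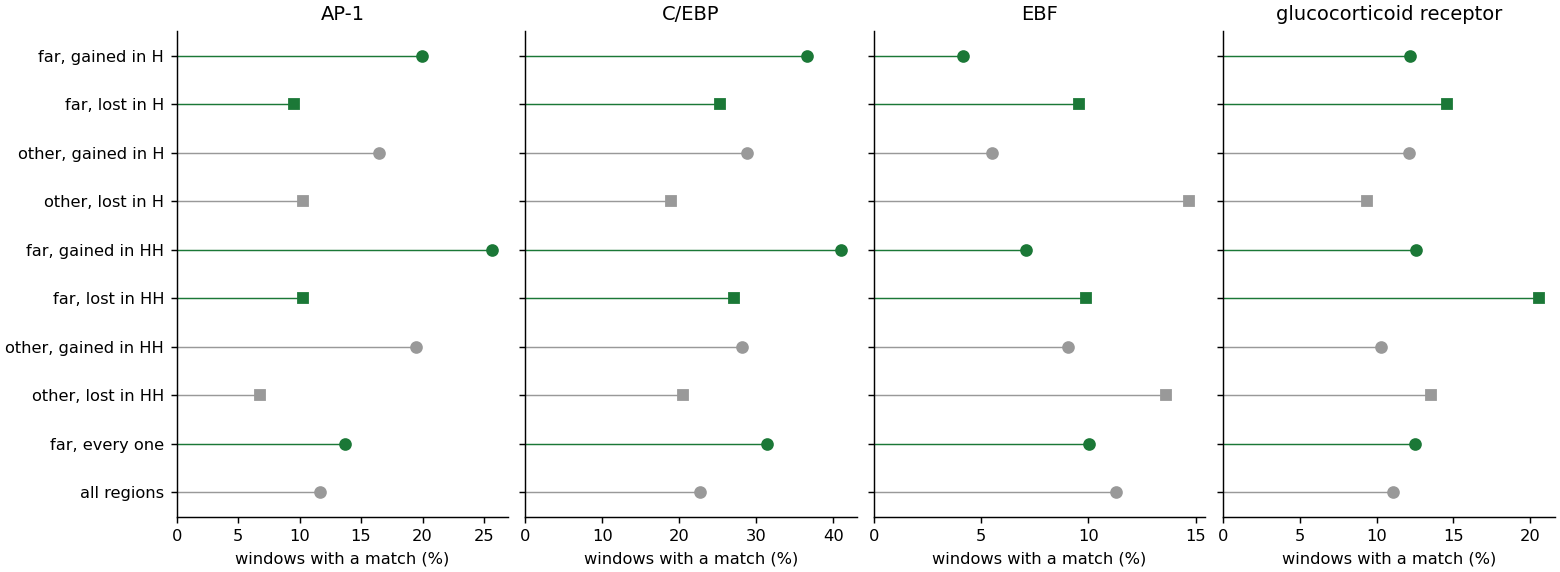
Percent of 300 bp windows that hold the letters of AP-1, C/EBP, EBF and the glucocorticoid receptor in sets of gained (circles) and lost (squares) regions, for far members (green) and other regions (grey), with every member and all regions called in 3 to 21 libraries in the lowest rows. AP-1 and C/EBP letters were more frequent in gained than in lost members at both durations, and EBF letters less frequent.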

How the data were processed

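ATAC-seq peak lists of 22 libraries in 8 groups were analysed. Per the labels and the study's methods, the authors trimmed reads with Trim Galore 0.6.6, aligned them to mm10 (GRCm38) with Bowtie2 2.4.4, made coverage with SAMtools 1.13 and bedtools 2.30 and called peaks per library with SEACR 1.3 in stringent mode at a threshold of 0.01. Each deposited peak has a summed and a maximum signal (coverage), with no normalization stated. The authors removed peaks on blacklisted regions, and whether the deposited lists precede that step is not given in the sources used here. The lists hold no counts, and the study gives a minimum number of reads but no depth per library, so no count test was used and no interval is given.

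Peaks overlapping by 1 bp or more were merged. Distances run from the region edge to coding TSSs of GENCODE vM21. Regions were ranked by summed signal in each library, and the top 30083 took the mean log2 value of their rank over libraries, with the rest at a floor of 14.01. A region below a library's calling threshold has no call, and merging can join neighbouring peaks into 1 region.

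Each HFD group was compared with the control group of its age (H and C, HC and CC_s, HH and CC_l, HHC and CCC). The limma 3.58.1 fit (lmFit, eBayes with trend, two-sided, in R 4.3.3) covered all regions of chromosomes 1 to 19, X and Y that were tested in a pair, with Benjamini-Hochberg adjustment over all of them. A region was tested where at least as many libraries of the pair as its smaller group holds lay above the floor. The levels of 1 group alone could thus suffice, and counts of called regions include such regions. Regions were called at an adjusted p under 0.05, or an unadjusted p under 0.01, with a log2 difference over 1. The fit was checked on simulated data. The smallest groups have 2 animals. Motifs were searched on both strands of the 300 bp at the signal maximum in GRCm38.p6, with python 3.11.15, numpy 2.4.6, pandas 2.3.3, scipy 1.17.1 and matplotlib 3.10.9.

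Named members were the 3 farthest, the 3 most called, the 2 of smallest p in each direction per pair, the 2 gained and 2 lost of highest signal per pair, up to 5 each gained or lost at both durations, and the 3 windows of 1 Mb with the most members. The text gives the subset that carries each comparison, and 1 of the farthest members is not reported here. Members and lists were chosen with earlier results of these data known. Alternatives covered distance limits, the overlap for a call, the number of peaks, signal measure, scaling, filters, the samples in the fit, the replicate block and each library left out. Chromosomes X and Y were left out of the members.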

Additional observations from a re-analysis of the deposited data

How the results depend on the processing

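With distance limits of 50 and 200 kb there were 7223 and 2595 members. When a call needed 50% of the region, 257 were gained and 101 lost in H, 6 gained in HC, 56 gained and 108 lost in HH, 10 gained and 79 lost in HHC, and 103 lost in CCC against CC_l. With the top 40000 peaks of each library, 23 were gained in HC, 116 gained and 135 lost in HH, 90 lost in HHC and 118 lost in CCC. The cause was not tested.

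In limma with the maximum signal, 417 and 173 members were higher and lower in H, 32 and 119 in HC, 66 and 128 in HH and 4 and 70 in HHC, and 1 in HC passed adjustment. With libraries centred on their median, 338 were higher in H, 66 in HC, 124 in HH and 13 in HHC, 42 were lower in HHC, and 9 in HC and 1 in HH passed adjustment. With no filter, 104 and 48 were called in H, 5 and 34 in HC, and 5 lower in HHC. Without a trend, 11 in HC passed adjustment, and HHC had 7 higher and 38 lower. With all libraries of a duration in 1 fit, 16 were higher in HC, 7 higher and 42 lower in HHC, and 32 in HC, 5 in HH and 1 in HHC passed adjustment.

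Same-numbered deviations correlated at -0.17 to 0.21. With groups of 2 or 3 libraries these values cannot show whether equal replicate numbers mark a pairing. With the number as a replicate block, 171 and 101 were called in H, 23 were higher in HH, 13 higher and 31 lower in HHC, and 6 in HH passed adjustment, among them chr4:83966812 (-2.87, limma adjusted p = 0.0212) and chr14:80478361 (2.25, limma adjusted p = 0.0426).

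With single libraries left out, gained and lost counts ran from 410 to 534 and 210 to 357 in H, 43 to 181 and 152 to 252 in HC, 212 to 494 and 312 to 491 in HH, 70 to 132 and 214 to 475 in HHC, 50 to 98 and 39 to 85 in CC_s, and 85 to 239 and 311 to 700 in CCC. Limma counts ran from 10 to 177 and 5 to 116 in H, 1 to 56 and 25 to 53 in HC (0 to 8 adjusted), 7 to 110 and 31 to 64 in HH (0 to 40 adjusted), and 0 to 13 and 2 to 28 in HHC (0 to 8 adjusted). Chosen after seeing the data, the counts without HC 3 or HHC 3 were 195, 100, 75 and 121 for members gained in H, lost in H, gained in HH and lost in HH. Where a group was left with 1 library, it was assumed to vary like the others.

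Member shares of the regions called in 3 to 21 libraries were 13.9% in H, 13.0% in HC and 13.4% in CC_l with the top 40000 peaks. As shares of summed signal they were 2.52% in C, 2.91% in H, 2.4% in CC_s, 2.15% in HC, 2.62% in CC_l, 2.71% in HH, 2.10% in CCC and 1.87% in HHC. Leaving out libraries gave 13.1 to 13.9% in C, 14.4 to 15% in H, 11.8 to 13.6% in CC_s, 13.7 to 14.0% in HC, 13.7 to 14.2% in CC_l, 13.3 to 14.9% in HH, 11.3 to 13.1% in CCC and 12.5 to 13.4% in HHC. In 200 bp windows, AP-1 letters were in 10.1%, C/EBP 26.7%, CTCF 4.03%, EBF 7.77%, PU.1 1.00%, glucocorticoid receptor 9.23% and PPAR-RXR 0.438% of members, and in windows of 40 to 50% GC, chosen after seeing the data, EBF letters were in 8.40%, against 7.92% of all regions called in 3 to 21 libraries. The H to C difference at chr14:91335989 turned from -0.37 to 0.0864 without H 2, and was -0.70 without H 1. The depth of each library is unknown, which limits what a missing call means.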

Other observations

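Of the 16597 far regions called in a single library, which the rule leaves out, HC 3 held 7091 (42.7%) and HHC 3 held 7048 (42.5%). The other 20 libraries held 7 to 1014, with the highest number in HH 1.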
